A study of Mus musculus with 21 samples.

Results

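The genes App, Bace1, Psen2, Adam10, Ide, Mapt, Apoe, Clu and Trem2 were followed in whole-brain RNA of SAMP8 mice, an inbred senescence-accelerated line with memory decline and no amyloid transgene. They were chosen by name for their place in amyloid, tau and Alzheimer disease biology, and are 9 of the 16318 genes of the deposited table. All 9 were present and passed the filter on low counts. The table was read for 21 mice, with 1 library per mouse. Of these, 12 received phosphate-buffered saline (PBS; 6 females and 6 males) and 9 received HsTX1[R14A] (spelled HxTX1[R14A] in some sample titles; 3 females and 6 males). HsTX1[R14A] is a peptide that blocks the voltage-gated potassium channel Kv1.3 and was given in PBS at 1 mg/kg. Both treatments were injected subcutaneously every other day for 8 weeks, from 4 months of age, and the brains were taken at 6 months. Mice are named here by the number in their label. All mice were SAMP8, and no SAMR1 control strain was among these libraries, so the data compare treatments and do not show how SAMP8 differs from a resistant strain.

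In the amyloid pathway, the membrane protein APP is cut by β-secretase (BACE1) and then by γ-secretase, whose catalytic subunit is a presenilin, to release amyloid-β. Cutting by α-secretase (mainly ADAM10) within the amyloid-β sequence prevents its release, and insulin-degrading enzyme (IDE) breaks amyloid-β down. Tau, made from Mapt, binds microtubules in axons and forms tangles in Alzheimer disease. Apolipoprotein E and clusterin are lipid carriers secreted largely by astrocytes, and TREM2 is a lipid-sensing receptor of microglia. Variants in or near APOE, CLU and TREM2 are known risk factors for late-onset disease in humans.

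Upstream sequences are shown for 3 genes, App and Trem2, which moved in opposite directions, and Adam10, which varied least between mice. They were taken from RefSeq windows of GRCm38.p6, which held 6 of the 9 genes, and only bases before both the RefSeq start and the GENCODE start of the gene are given. Bace1, Mapt and Clu had no entry. Each runs 5′ to 3′ on the strand of its gene, and capitals mark the GC box letters GGGCGG, the TATA box letters TATAAA or the CCAAT box on either strand.
App, chr16:85173767-85173957, minus strand: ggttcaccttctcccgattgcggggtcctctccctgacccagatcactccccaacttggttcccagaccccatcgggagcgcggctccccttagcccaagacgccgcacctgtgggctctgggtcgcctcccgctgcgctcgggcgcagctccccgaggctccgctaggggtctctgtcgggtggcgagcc
Adam10, chr9:70678732-70678981, plus strand: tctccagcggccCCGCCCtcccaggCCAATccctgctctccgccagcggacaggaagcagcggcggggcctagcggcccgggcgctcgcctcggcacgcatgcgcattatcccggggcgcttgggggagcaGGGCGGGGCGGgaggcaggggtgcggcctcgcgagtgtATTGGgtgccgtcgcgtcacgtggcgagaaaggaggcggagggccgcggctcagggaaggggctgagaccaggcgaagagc
Trem2, chr17:48346151-48346400, plus strand: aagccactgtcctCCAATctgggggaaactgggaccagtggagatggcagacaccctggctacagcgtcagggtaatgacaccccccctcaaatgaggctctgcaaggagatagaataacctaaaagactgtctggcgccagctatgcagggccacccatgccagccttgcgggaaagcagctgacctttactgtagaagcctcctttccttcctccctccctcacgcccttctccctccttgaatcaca
The Adam10 window (250 bases) was the richest in GC, at 74.0%, with 29 CG dinucleotides, 3 GGGCGG matches, of which a pair overlaps, and 2 CCAAT matches. In Trem2 (250 bases), 56.0% of bases were G or C, there were 4 CG dinucleotides and 1 CCAAT match was found. In App (191 bases), 69.6% of bases were G or C and there were 16 CG dinucleotides, and none of the 3 motifs was found in these bases. Over all 32851 RefSeq windows of 250 bases, the median was 52.4% GC and 6 CG dinucleotides, and GGGCGG was found in 32.7%, CCAAT in 33.9% and TATAAA in 12.4%. In the first 191 bases of these windows GGGCGG was found in 23.1%, CCAAT in 26.9% and TATAAA in 8.78%. These are letter matches and not measured binding sites.

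Library totals ranged from 14917174 to 47613792 estimated counts. Xist, the noncoding RNA of the inactive X chromosome, was higher in females by 9.99 on the log2 scale (SE 0.46). Markers of neurons, astrocytes, oligodendrocytes and microglia were present in every library. In contrast, 3 of 8 leukocyte markers (Cd3e, Cd3d and Ccr2) and 2 of 7 blood markers (S100a8 and S100a9) were not in the table. The libraries differed in how strongly the read counts depended on transcript length. This was measured as the length slope, the change of log2 CPM (read counts scaled to a common library size, centered on the mean of all mice) per doubling of transcript length over 16224 genes. It averaged -0.0764 ± 0.161 (SD, n = 12) in PBS mice, from -0.384 to 0.147, and 0.102 ± 0.119 (SD, n = 9) in HsTX1[R14A] mice, from -0.142 to 0.234 (exact permutation within sex, two-sided, p = 0.00504). The share of counts from mitochondrially encoded genes was 14.7% ± 3.69 (SD, n = 12) with PBS and 9.54% ± 1.91 (SD, n = 9) with HsTX1[R14A] (exact permutation within sex, two-sided, p = 0.00108). Library names in the table's header came in 2 forms, shared by 10 PBS with 5 HsTX1[R14A] mice and by 2 PBS with 4 HsTX1[R14A] mice. What the forms stand for is not stated.

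All levels are in CPM scaled by the trimmed mean of M values (TMM), which sets the libraries to a common scale. Levels were compared between genes per kilobase of the longest protein-coding transcript, over all 21 mice. Apoe was the most abundant, at 967 ± 128 CPM per kb (SD, n = 21), followed by Clu at 419 ± 60.3, App at 126 ± 30.9 and Mapt at 90.0 ± 15.1 CPM per kb. The other 5 genes lay far lower. Adam10 read 16.99 ± 0.867, Trem2 13.5 ± 2.75, Bace1 13.1 ± 1.92, Ide 8.96 ± 1.08 and Psen2 5.19 ± 0.783 CPM per kb (SD, n = 21). Every step of this order held in all 21 mice except those around Trem2. Adam10 was above Trem2 in 19 of 21 mice, and Trem2 was above Bace1 in 11 of 21, so Trem2 and Bace1 did not differ beyond their spread. The choice of transcript matters for App and Mapt, whose shortest coding transcripts (2827 and 1362 bases against 8167 and 5253) would give 365 and 347 CPM per kb. It also matters for Apoe, which would read 2883 CPM per kb on 472 bases. Bace1 would read 19.56 CPM per kb on 4041 bases, above Adam10, so the order of these genes depends on that choice.

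HsTX1[R14A] was compared with PBS to ask how the blocker affected gene expression in the brain. With sex in the model, App, Bace1 and Mapt were significantly higher and Trem2 significantly lower in HsTX1[R14A] mice (edgeR quasi-likelihood test, false discovery rate (FDR) of at most 0.05). These 4 of 9 genes compare with 31.6% of the 16303 genes tested, and the 3 that rose and the 1 that fell compare with 15.5% and 16.1% of all genes, so the counts were near those of the brain transcriptome as a whole. Ide, Apoe, Adam10, Psen2 and Clu did not pass. The median log2 fold change of all genes tested was -0.013. Changes were modest, the greatest being 1.34-fold, for App. Whole-brain RNA cannot tell fewer cells of a type from less RNA per cell.

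**Figure D1:**
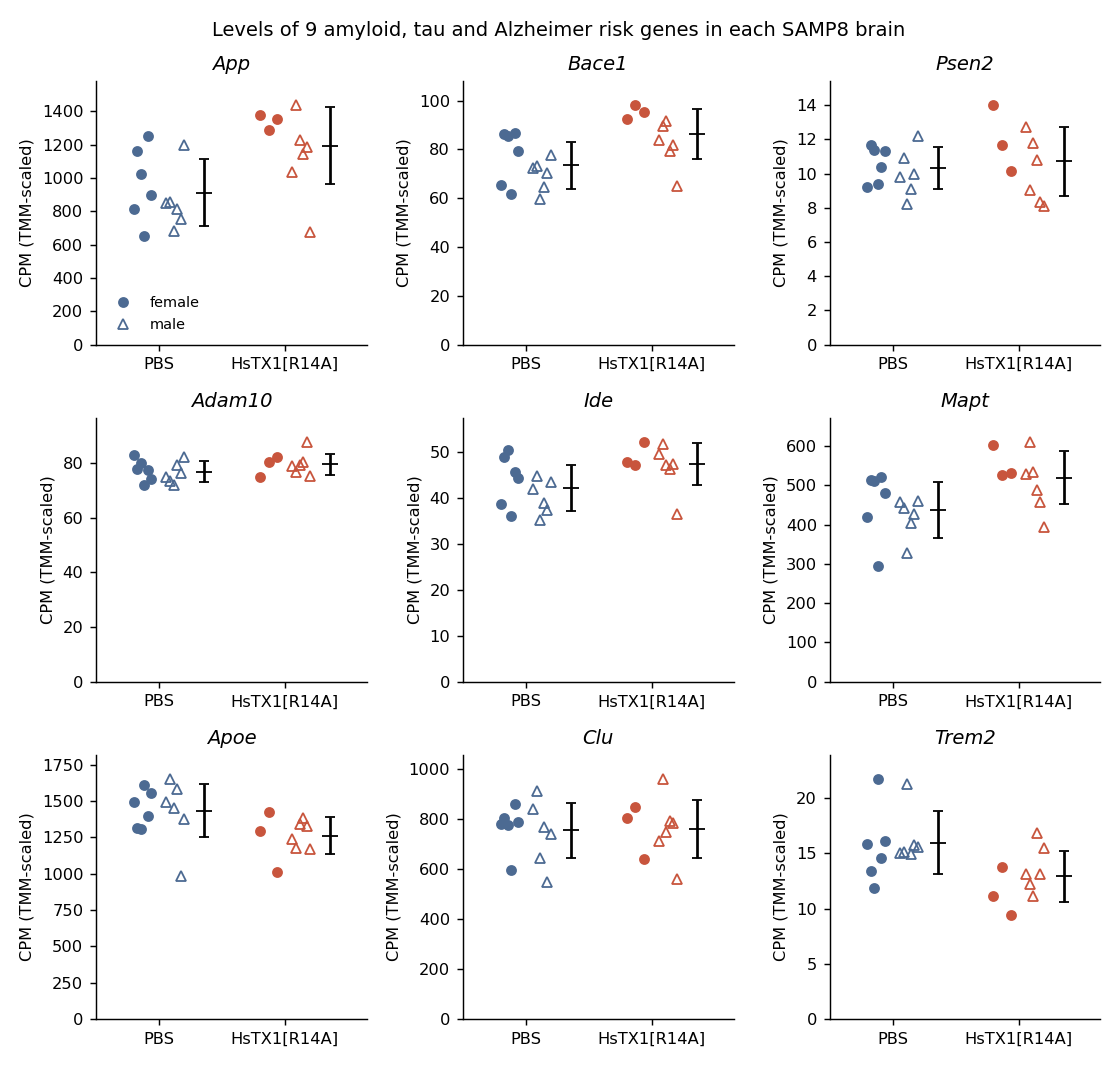
Level of each gene in every mouse, in TMM-scaled CPM, with PBS in blue and HsTX1[R14A] in red, females as filled circles and males as open triangles. Black bars show the mean and SD of the 12 PBS and 9 HsTX1[R14A] mice. HsTX1[R14A] mice lie mostly above PBS mice for App, Bace1 and Mapt and mostly below for Trem2, with overlap in every gene.

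App (chr16:84949685-85173766, minus strand, GRCm38) encodes the amyloid precursor protein, a membrane protein abundant in neurons. PBS females ranged from 652 to 1253 CPM with a median of 961, and PBS males from 683 to 1195 with a median of 830. The 3 HsTX1[R14A] females read 1378, 1290 and 1356 CPM, and the 6 HsTX1[R14A] males ranged from 675 to 1437 with a median of 1166. All 3 treated females and 1 treated male thus exceeded every PBS mouse, while 1 treated male, mouse 93, lay at the low end of the PBS range. Means were 912 ± 201 CPM (SD, n = 12) with PBS and 1193 ± 231 CPM (SD, n = 9) with HsTX1[R14A]. The log2 fold change was 0.42 (SE 0.13, 95% interval 0.15 to 0.69, edgeR FDR = 0.0250). The exact permutation test within sex gave p = 0.00804 (two-sided), and 8 of 9 treated mice lay above the PBS median. Without PBS male 90 the FDR was 0.0505, at a log2 fold change of 0.39.

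Among the secretases, Bace1 changed and the others did not pass the test. Bace1 (chr9:45838580-45864399, plus strand, GRCm38), the β-secretase, ranged from 61.6 to 86.9 CPM in PBS females (median 82.3) and from 59.7 to 77.7 CPM in PBS males (median 71.4). The treated females read 92.3, 98.2 and 95.4 CPM, and the treated males ranged from 64.8 to 91.8 CPM with a median of 82.8. The treated females again lay above all PBS mice, together with 2 treated males, and all 12 PBS mice lay below the treated median. Means were 73.6 ± 9.67 CPM (SD, n = 12) and 86.3 ± 10.3 CPM (SD, n = 9), a log2 fold change of 0.26 (SE 0.08, 95% interval 0.10 to 0.42, edgeR FDR = 0.0213, exact permutation p = 0.00308). This call held whichever of the 21 mice was left out, with FDRs from 0.00796 to 0.0430. Bace1 overlaps Rnf214 and the antisense gene Gm16536 on the opposite strand, both also in the table, and whether counting used strand is not stated.

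Adam10 (chr9:70678997-70780229, plus strand, GRCm38), the main α-secretase, was the steadiest of the 9 genes, with a coefficient of variation of 5.10% over all mice. It ranged from 71.8 to 83.1 CPM with PBS and from 74.95 to 87.7 CPM with HsTX1[R14A], with 4 of 12 PBS mice below every treated mouse and 1 of 9 treated mice above every PBS mouse. Its log2 fold change was 0.05 (SE 0.05, 95% interval -0.04 to 0.14, edgeR FDR = 0.392). This interval overlaps that of Bace1 (0.10 to 0.42), and whether the 2 genes differed in their change was not tested. The ratio of Bace1 to Adam10 within a library was 0.956 ± 0.118 (SD, n = 12) with PBS, from 0.786 to 1.123, and 1.09 ± 0.133 (SD, n = 9) with HsTX1[R14A], from 0.862 to 1.23. Psen2 (chr1:180227004-180263438, minus strand, GRCm38), one of the presenilins that can form the catalytic core of γ-secretase, was the least abundant member. It ranged from 8.23 to 12.2 CPM with PBS and from 8.09 to 14.01 CPM with HsTX1[R14A], with the lowest and the highest of all mice both in the treated group. Its log2 fold change was 0.08 (SE 0.10, 95% interval -0.12 to 0.28, edgeR FDR = 0.514). With 132 to 575 counts per library, counting error alone came to 6.18% at the median count, against a coefficient of variation of 15.1%.

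Ide (chr19:37268743-37337852, minus strand, GRCm38), which encodes a metalloprotease that degrades insulin and amyloid-β, lay just outside the threshold. PBS mice ranged from 35.3 to 50.6 CPM with a median of 42.8, and HsTX1[R14A] mice from 36.6 to 52.3 CPM with a median of 47.5. In 8 of 9 treated mice Ide lay above the PBS median, the exception being mouse 93. Means were 42.2 ± 4.96 CPM (SD, n = 12) and 47.4 ± 4.55 CPM (SD, n = 9). The log2 fold change was 0.19 (SE 0.07, 95% interval 0.04 to 0.33, edgeR FDR = 0.0505, exact permutation p = 0.0163). Ide passed with RLE scaling (FDR = 0.0404), with DESeq2 (FDR = 0.0235), with quality weights (FDR = 0.0460) and without any 1 of 7 mice, with FDRs then from 0.0156 (without mouse 93) to 0.0479 (the others being PBS mice 82, 83, 84, 85, 102 and 104).

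Mapt (chr11:104231390-104332090, plus strand, GRCm38), which encodes the microtubule-associated protein tau, was higher with HsTX1[R14A], but by a margin that depended on single mice. PBS females ranged from 294 to 521 CPM with a median of 496, and PBS males from 327 to 460 CPM with a median of 434.5. The treated females read 602, 527 and 532 CPM, and the treated males ranged from 395 to 610 CPM with a median of 508. Here 6 of 9 treated mice exceeded every PBS mouse, and the low PBS values came from female 103 and male 90. The mean was 438 ± 71.0 CPM (SD, n = 12) with PBS and 519.5 ± 66.95 CPM (SD, n = 9) with HsTX1[R14A]. The log2 fold change was 0.27 (SE 0.10, 95% interval 0.06 to 0.47, edgeR FDR = 0.0441, exact permutation p = 0.0113). The call was lost on leaving out any 1 of 11 mice, namely PBS mice 73, 90, 91 and 101 or HsTX1[R14A] mice 71, 72, 74, 81, 88, 89 and 98, with FDRs from 0.0530 to 0.0860.

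Apoe and Clu, the lipid carriers, did not pass the test. Apoe (chr7:19696109-19699188, minus strand, GRCm38) ranged from 982 to 1651 CPM with a median of 1474 in PBS mice and from 1010 to 1427 CPM with a median of 1294 in HsTX1[R14A] mice. All 9 treated mice lay below the PBS median, yet all also lay within the PBS range, whose low end was PBS male 101. Means were 1435 ± 181 CPM (SD, n = 12) and 1263 ± 129 CPM (SD, n = 9), with a log2 fold change of -0.18 (SE 0.09, 95% interval -0.36 to -0.0049, edgeR FDR = 0.0993, exact permutation p = 0.0475). Without PBS male 101 Apoe passed, at a log2 fold change of -0.24 and an FDR of 0.0327. Clu (chr14:65968483-65981547, plus strand, GRCm38), which encodes the secreted chaperone clusterin, ranged from 546 to 914 CPM with PBS and from 562 to 959 CPM with HsTX1[R14A], with nearly equal means of 755 ± 109 (SD, n = 12) and 762 ± 116 CPM (SD, n = 9). Its log2 fold change was 0.02 (SE 0.10, 95% interval -0.19 to 0.23, edgeR FDR = 0.893). Astrocyte markers did not move one way, as Gfap, Aqp4 and Aldoc fell and Slc4a4 rose among the 10 measured, and their summed level was 3121 to 5129 CPM with PBS and 3316 to 5193 CPM with HsTX1[R14A]. Per 100 CPM of this sum, Apoe was at 34.1 ± 6.91 CPM (SD, n = 12) with PBS and 28.1 ± 3.54 CPM (SD, n = 9) with HsTX1[R14A], and Clu at 17.6 ± 1.16 (SD, n = 12) and 16.8 ± 1.45 CPM (SD, n = 9).

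Trem2 (chr17:48346401-48354147, plus strand, GRCm38), the microglial receptor, was the only one of the 9 genes called lower with HsTX1[R14A]. PBS females ranged from 11.9 to 21.7 CPM with a median of 15.25, and PBS males from 14.98 to 21.3 with a median of 15.36. The treated females read 11.2, 13.8 and 9.44 CPM, and the treated males ranged from 11.1 to 16.9 CPM with a median of 13.1. The highest values were those of PBS female 103 and PBS male 90, while 3 treated mice lay below all PBS mice. Means were 15.95 ± 2.86 CPM (SD, n = 12) and 12.9 ± 2.29 CPM (SD, n = 9). Trem2 fell by 0.33 on the log2 scale (SE 0.11, 95% interval -0.56 to -0.10, edgeR FDR = 0.0306, exact permutation p = 0.00559), and 7 of 9 treated mice lay below the PBS median. The call was lost without PBS male 90 (log2 fold change -0.27, FDR = 0.0765), and also without HsTX1[R14A] mice 71, 81, 88 or 98 (FDRs from 0.0531 to 0.0717). With sample quality weights it was lost too (FDR = 0.0909). Trem2 had 206 to 678 counts per library, a counting error of 5.32% at the median count against a coefficient of variation of 17.9% among PBS mice.

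Some markers of microglia fell along with Trem2. Of 12 markers, 4 fell (P2ry12, C1qb, Aif1 and Siglech) and none rose (33.3% lower, against 16.1% of all genes), with log2 fold changes from -0.65 for P2ry12 to 0.49 for Sall1, which did not pass (edgeR FDR = 0.0885). Their summed level ranged from 468 to 656 CPM in PBS mice and from 409 to 582 CPM in HsTX1[R14A] mice. Per 100 CPM of this sum, Trem2 was at 2.92 ± 0.346 CPM (SD, n = 12) with PBS and 2.72 ± 0.258 CPM (SD, n = 9) with HsTX1[R14A], with overlapping ranges of 2.53 to 3.66 and 2.24 to 3.02. The part of the microglial marker level in the Trem2 difference was not tested. The markers of other cell types are read against the same background of 15.5% higher and 16.1% lower. Oligodendrocyte markers fell in 6 of 10 cases (60%), with summed levels of 4624 to 7041 CPM with PBS and 3512 to 5151 CPM with HsTX1[R14A], and neuron markers rose in 3 of 12 cases (25%), with sums of 6608 to 9977 and 8285 to 11850 CPM. Among vascular and ventricular markers, 2 of 9 endothelial genes rose (22.2%, sums of 109 to 163 and 112 to 182 CPM), 3 of 8 ependymal genes fell (37.5%, 15.8 to 50.7 and 14.1 to 26.2 CPM) and 0 of 8 choroid plexus genes passed by edgeR, 1 being at an unadjusted p under 0.05 and 1 passing by DESeq2 (71.2 to 1140 and 60.3 to 843 CPM). Hemoglobin and other blood markers passed in 0 of 5 cases by edgeR and by DESeq2, 0 being at an unadjusted p under 0.05 (5.82 to 157 and 15.1 to 87.6 CPM), and 1 of 5 leukocyte and border macrophage markers fell (20%, 9.32 to 19.7 and 7.11 to 13.2 CPM). The shares of neuron, endothelial and leukocyte markers thus lay near the background. With the length slope as a covariate 0 genes of these marker lists and 0 of all 16303 genes passed by edgeR. The median log2 fold change moved toward 0 for microglia (-0.227 to -0.115), oligodendrocytes (-0.419 to -0.251) and neurons (0.19 to 0.028). It did so too for endothelium (0.252 to 0.012), ependyma (-0.659 to -0.34) and leukocytes (-0.344 to -0.234). It moved away from 0 for astrocytes (-0.051 to -0.137), choroid plexus (-0.297 to -0.395) and blood (0.342 to 0.418). How far these marker differences touch App, Bace1 and Mapt, all strongly expressed in neurons, was not tested.

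**Figure D2:**
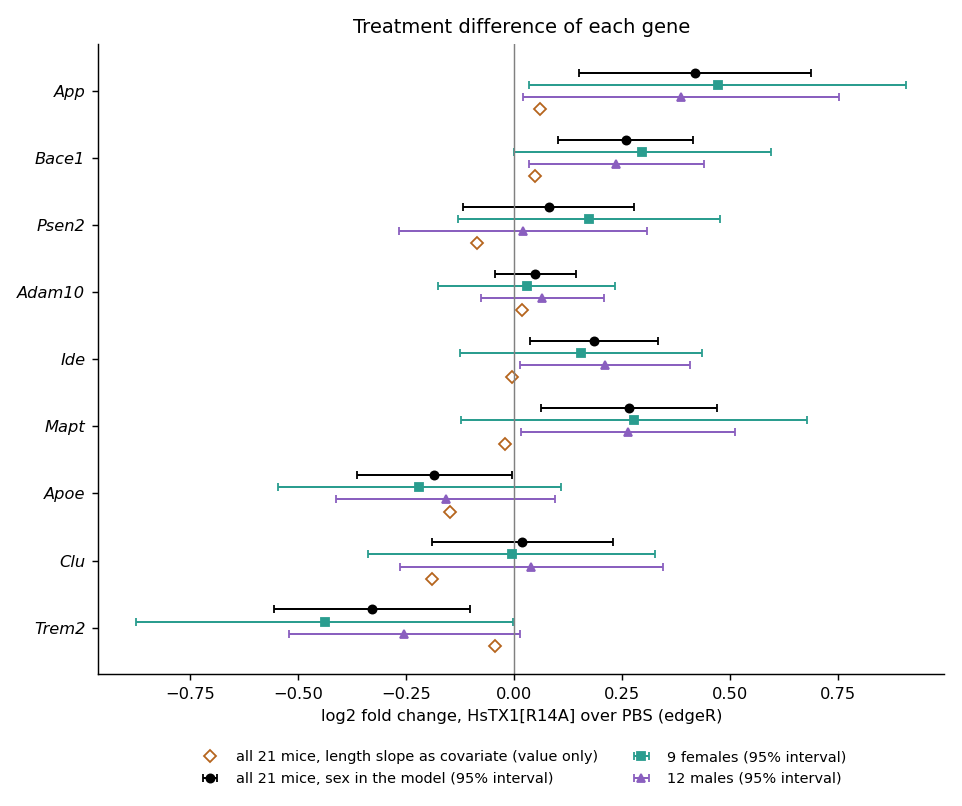
Log2 fold change between HsTX1[R14A] and PBS mice for each gene (horizontal axis, positive where HsTX1[R14A] was higher) in all 21 mice, in the 9 females and in the 12 males, each with its 95% interval, and in all mice with the length slope as a covariate (open diamonds, no interval shown). Female and male values lie on the same side of 0 for every gene but Clu, and with the length slope in the model App, Bace1, Mapt, Ide and Trem2 lie between -0.04 and 0.06.

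The sexes were also fitted apart, since the study gave the behavior of the sexes apart. In females App differed by 0.47 on the log2 scale (SE 0.20, edgeR FDR = 0.244), Bace1 by 0.30 (SE 0.13, FDR = 0.245), Mapt by 0.28 (SE 0.18, FDR = 0.337) and Trem2 by -0.44 (SE 0.20, FDR = 0.244). In males the values were 0.39 (SE 0.17, FDR = 0.167), 0.24 (SE 0.09, FDR = 0.147), 0.26 (SE 0.12, FDR = 0.166) and -0.25 (SE 0.12, FDR = 0.198), in the same directions. Neither sex alone gave a call. In females 0 of 9 genes passed, as did 0% of the 16209 genes tested, with 2 of the 9 and 3312 of all genes at an unadjusted p under 0.05. In males 0 of 9 passed, as did 0% of the 16102 genes tested, with 4 of the 9 and 4440 of all genes at an unadjusted p under 0.05. The difference between the sexes in the response was itself tested as an interaction, and 0 of 9 genes passed (0% of the 16303 genes tested, with 0 of the 9 and 270 of all genes at an unadjusted p under 0.05). limma/voom likewise called 0 genes in each of these 3 comparisons. The intervals of the interaction were wide, from -0.48 to 0.66 for App and from -0.64 to 0.28 for Trem2, and so reach the size of the treatment difference itself. Leaving out HsTX1[R14A] male 93 gave calls in males for App (log2 fold change 0.50, FDR = 0.0465), Bace1 (0.30, FDR = 0.0465) and Ide (0.27, FDR = 0.0474). These 3 of the 9 were among 1879 genes called in that fit, so the calls were not particular to these genes. Between females and males of the same treatment 0 of 9 genes passed, against 0.0552% of all genes (0.0245% higher and 0.0307% lower in females), and Bace1 was the 1 gene of the 9 at an unadjusted p under 0.05, higher in females by 0.18 (SE 0.08, FDR = 0.446).

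The levels of most of the genes followed the length slope of the library, within as well as between treatments. After removal of sex and treatment means, log2 CPM of Mapt correlated with the slope at r = 0.938 over 21 mice (permutation p = 1e-05, the smallest possible, adjusted over 9 genes 2.25e-05), with rho = 0.870 (permutation p = 1e-05, adjusted 3e-05). Leaving out both mice with the most extreme slopes gave r = 0.864, and the forms of library name gave 0.950 (15 mice) and 0.844 (6 mice) on their own. Trem2 ran the other way, with r = -0.827 (permutation p = 2e-05, adjusted 3.6e-05) and rho = -0.787 (permutation p = 0.0001, adjusted 0.00018), an r of -0.673 without the 2 mice, and -0.885 and -0.640 within the forms. Bace1, Ide and App lay close to Mapt at r = 0.915, 0.900 and 0.856, with rho = 0.829, 0.883 and 0.809 (each permutation p at most 2e-05, adjusted at most 4.5e-05). Without the 2 mice r was 0.886, 0.889 and 0.828 for these 3 genes, within the more common form of library name it was 0.910, 0.907 and 0.911, and within the other 0.900, 0.851 and 0.805. Clu (r = 0.667, permutation p = 0.0011, adjusted 0.00165, rho = 0.569, p = 0.00816, adjusted 0.0122) and Psen2 (r = 0.566, permutation p = 0.00713, adjusted 0.00917, rho = 0.538, p = 0.0132, adjusted 0.0170) followed it less closely, at r = 0.570 and 0.494 without the 2 mice, 0.751 and 0.727 within the more common form and 0.173 and 0.284 within the other. Adam10 (r = 0.313, permutation p = 0.168, adjusted 0.189, rho = 0.252, p = 0.268, adjusted 0.302) and Apoe (r = -0.136, permutation p = 0.550, adjusted 0.550, rho = -0.225, p = 0.324, adjusted 0.324) showed no relation that passed, with r = -0.022 and 0.031 without the 2 mice, 0.399 and -0.015 within the more common form and -0.417 and -0.615 within the other. The same held among the 12 PBS mice alone, where no treatment was involved, with r = 0.957 for Mapt (permutation p = 2e-05, adjusted 9e-05, rho = 0.916, p = 8e-05, adjusted 0.00018) and r = -0.905 for Trem2 (permutation p = 0.00027, adjusted 0.000558, rho = -0.818, p = 0.00188, adjusted 0.00338). Without the 2 farthest mice these became 0.869 and -0.675, and among the 10 PBS mice of the more common form they were 0.955 and -0.918. The 4 genes with the highest positive r have the longest coding transcripts of the 9 (4962 to 8167 bases), and Adam10 comes next at 4593 bases. Among the shorter ones r did not follow length. Trem2 has the shortest at 1088 bases, while Apoe, Clu and Psen2 (1408, 1810 and 2020 bases) had r = -0.136, 0.667 and 0.566. The slope itself used the longest transcript of any type, which for Trem2 is 4784 bases, longer than that of Adam10.

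**Figure D3:**
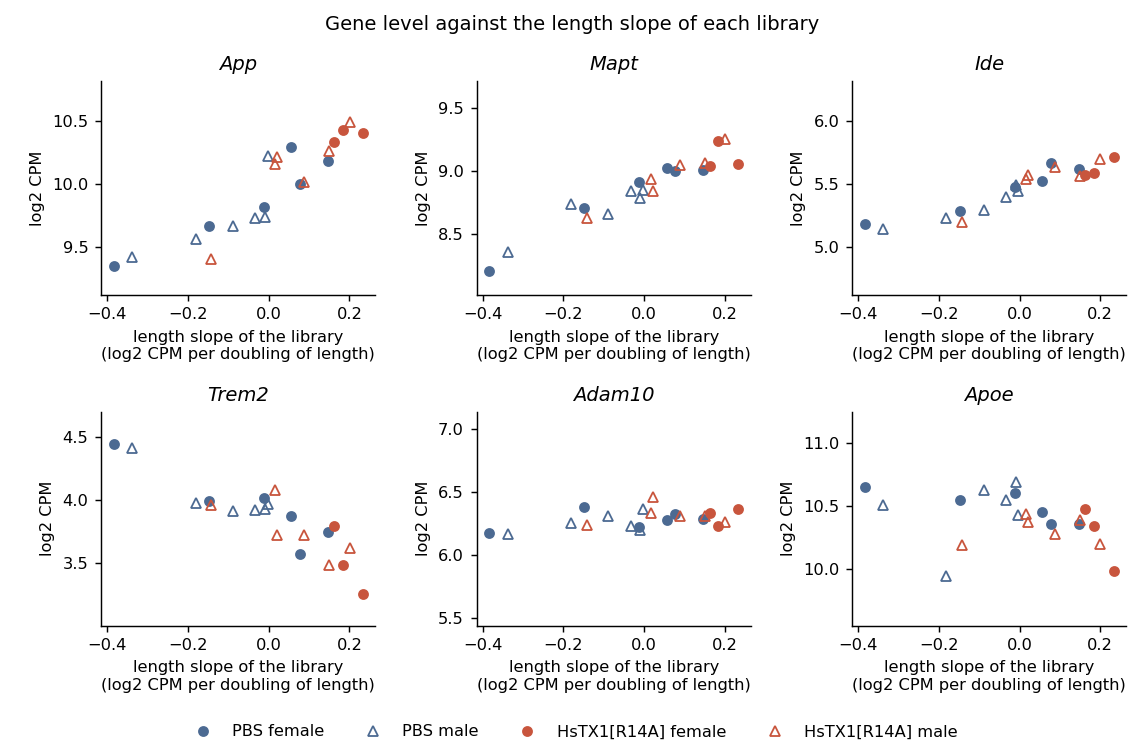
Log2 CPM of 6 genes (vertical axis, each panel spanning the same range of log2 units) against the length slope of the library (horizontal axis, log2 CPM per doubling of transcript length), 1 point per mouse. App, Mapt and Ide rise and Trem2 falls along the slope in PBS (blue) and HsTX1[R14A] (red) mice alike, Adam10 is nearly flat, and HsTX1[R14A] mice lie mostly at higher slopes.

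With the length slope as a covariate, the treatment difference of the called genes was close to 0 and none of the 9 passed, as was so for all 16303 genes (1865 at an unadjusted p under 0.05). The log2 fold change was 0.06 for App (edgeR FDR = 0.825), 0.05 for Bace1 (FDR = 0.680), -0.02 for Mapt (FDR = 0.905) and -0.04 for Trem2 (FDR = 0.854). Apoe kept most of its difference, at -0.15 (FDR = 0.580), and Clu read -0.19 (FDR = 0.455), neither past the threshold. Since the slope itself differed between treatments, its part and that of treatment cannot be told apart. With the form of library name as a covariate, none of the 9 passed either, although the values stayed nearer to those without it, at 0.33 for App (FDR = 0.0537), 0.23 for Bace1 (FDR = 0.0505), 0.24 for Mapt (FDR = 0.0895) and -0.31 for Trem2 (FDR = 0.0633), and 1999 genes were called. Within the 15 mice of the more common form, App read 0.42 (FDR = 0.0749), Bace1 0.28 (FDR = 0.0797), Mapt 0.29 (FDR = 0.125) and Trem2 -0.33 (FDR = 0.119). Within the other 6 mice, App read 0.09 (FDR = 0.901), Bace1 0.12 (FDR = 0.868), Mapt 0.12 (FDR = 0.887) and Trem2 -0.34 (FDR = 0.855).

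The genes also varied with each other between mice. Among the 36 pairs, App and Bace1 were the most alike (r = 0.889 over 21 mice after removal of sex and treatment means, permutation p = 1e-05, the smallest possible, adjusted 0.00012, rho = 0.805, p = 3e-05, adjusted 0.00048). Without the 2 mice farthest from the median of App r was 0.778, within the forms of library name 0.912 and 0.951, and after removal of the length slope 0.51. Apoe and Clu showed a weaker relation (r = 0.497, permutation p = 0.0213, adjusted 0.0404, rho = 0.356, p = 0.113, adjusted 0.184) that rested on the 2 mice farthest from the median of Apoe, without which r was 0.109. Within the forms of library name it was 0.57 and 0.499, and after removal of the length slope 0.797, the highest of the 36 pairs on that measure.

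Of 13303 genes compared, those whose levels ran most alike to each member over the 21 mice, after removal of sex and treatment means, are given as a description. For App they were Clstn3, which encodes a synaptic calsyntenin (r = 0.974), Aars (0.964) and Snrnp200 (0.963), and for Mapt they were Gabbr2, a GABA-B receptor subunit (0.980), Dscam (0.972) and Ncoa1 (0.971). Bace1 ran most like Herc2, Wdr7 and Asxl1 (0.950 to 0.951) and Ide like Gys1, Abca7 and Usp10 (0.922 to 0.940). Trem2 ran most like Nubp2, Pih1d1 and Rtn2 (0.901 to 0.919), none of which was among the 12 microglial markers. Apoe was closest to Serpinh1, Ifngr1 and the astrocyte connexin gene Gja1 (0.844 to 0.887), and Clu to Lgmn, Fads2 and Msn (0.854 to 0.899). Likeness was lower for Psen2, with H2afy, Gas6 and Megf11 (0.835 to 0.856), and lowest for Adam10, with Top2b, Trib2 and Csrnp3 (0.742 to 0.744). After removal of the length slope as well, r stayed at 0.862 to 0.901 for the App genes and 0.853 to 0.906 for the Apoe genes, but was 0.480 to 0.640 for the Ide genes and 0.664 to 0.715 for the Trem2 genes.

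The other genes of these pathways were taken from 6 lists, without the 9 members. Of 29 genes for secretases and APP partners, 9 rose, 2 fell and 18 did not pass, which is 31.03% higher and 6.90% lower, against 15.5% and 16.1% over all genes, with a median log2 fold change of 0.125. Aplp2, an APP-like protein, rose by 0.56 (SE 0.16, edgeR FDR = 0.0210) and Gga3, an adaptor that sorts BACE1, by 0.51 (SE 0.15, FDR = 0.0212). Those that fell were Vps26a, a retromer subunit (-0.36, SE 0.11, FDR = 0.0212), and Psenen, a γ-secretase subunit (-0.33, SE 0.12, FDR = 0.0471). Of 18 genes for amyloid-β breakdown and transport, 3 rose and 1 fell (16.7% and 5.56%, median 0.171). Lrp1, a receptor that clears amyloid-β and takes up APOE, went from 161 ± 78.3 CPM (SD, n = 12) to 296 ± 121 CPM (SD, n = 9), a log2 fold change of 0.96 (SE 0.26, edgeR FDR = 0.0191). The endothelin-converting enzyme gene Ece1 rose by 0.59 (SE 0.17, FDR = 0.0206), and Cst3, which encodes cystatin C, fell by 0.51 (SE 0.17, FDR = 0.0297). Of 32 tau kinases, phosphatases and microtubule partners, 12 rose and 0 fell by edgeR (37.5% and 0%, median 0.211), with 3 lower at an unadjusted p under 0.05 and 2 falling by DESeq2. Map1b, a microtubule-binding protein of growing axons, rose by 0.83 (SE 0.19, FDR = 0.0151) and the tau-tubulin kinase gene Ttbk2 by 0.21 (SE 0.05, FDR = 0.0172), both above the PBS median in 9 of 9 treated mice.

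Of 20 apolipoprotein and lipid transport genes, 9 rose and 4 fell (45% and 20%, median 0.216). The cholesterol exporter gene Abcg1 rose by 0.45 (SE 0.12, edgeR FDR = 0.0189), while Apod fell by 0.53 (SE 0.14, FDR = 0.0177), with 9 of 9 treated mice at or below the PBS median, and Apoa1, at about 1 CPM, by 1.13 (SE 0.37, FDR = 0.0299). The Trem2 pathway list was the one in which no gene rose and 5 of 18 fell (0% and 27.8%, median -0.132), with 0 higher at an unadjusted p under 0.05 and 0 rising by DESeq2. Tyrobp, the adaptor through which TREM2 signals, went from 18.2 ± 5.99 CPM (SD, n = 12) to 11.5 ± 3.28 CPM (SD, n = 9), a log2 fold change of -0.71 (SE 0.18, FDR = 0.0172). Lgals3, which encodes galectin-3 and was also at about 1 CPM, fell by 0.70 (SE 0.17, FDR = 0.0163). Of 36 genes at other Alzheimer risk loci, 8 rose and 5 fell (22.2% and 13.9%, median 0.04). Akap9 rose by 0.63 (SE 0.15, FDR = 0.0153) and Unc5c by 0.35 (SE 0.10, FDR = 0.0191), while Cox7c, a subunit of cytochrome c oxidase, fell by 0.75 (SE 0.19, FDR = 0.0172) and the cathepsin gene Ctsh by 0.47 (SE 0.12, FDR = 0.0177). The counts depended on the fit. With members included, secretases and APP partners went from 11 higher to 4 without a sex term and 3 with the form of library name as a covariate, the tau list from 13 to 9 and 6, lipid transport from 9 to 4 and 3, risk loci from 8 to 5 and 2, and the Trem2 pathway from 6 lower to 3 and 2. Within the 15 mice of the more common form, and within the other 6, 0 genes of each list passed. With the length slope as a covariate no gene of any list passed, nor did any of all 16303 genes. The medians of the lists, members included, were then 0.019, -0.005, 0.011, -0.057, -0.161 and -0.046 in the order given. The list of Trem2 pathway genes thus kept the most negative median.

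**Figure D4:**
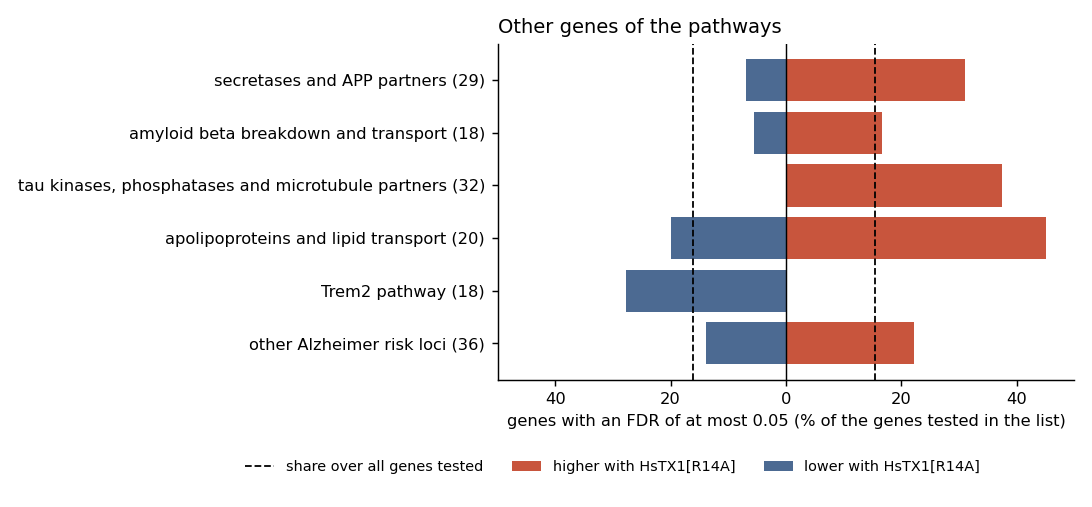
Share of the genes of each list, members left out, that rose (red, to the right) or fell (blue, to the left) with HsTX1[R14A] at an FDR of at most 0.05, with the number tested in brackets. Dashed lines mark the shares over all 16303 genes, 15.5% higher and 16.1% lower; the tau list has no gene on the left and the Trem2 pathway list none on the right.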

How the data were processed

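RNA was extracted from the brains of 21 SAMP8 mice. Per the labels, a SMARTER mRNA-Seq kit was used; the study's methods name an MGI directional kit. The authors processed reads with nf-core/rnaseq 3.2 (STAR, GRCm38, Salmon) and deposited estimated counts per gene, not normalized, with CPM and their own fold changes and FDRs, which were not used. In all, 53 per-sample columns (37 of CPM, 16 of counts of libraries without a label) were left out. Of the deposited estimated counts, which were all rounded here, 90.5% were whole to within 0.01.

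After filterByExpr (16303 genes kept) and TMM scaling, edgeR 4.0.16 in R 4.3.3 fitted sex and treatment by quasi-likelihood, with Benjamini-Hochberg adjustment over all genes (FDR 0.05). The SE is the log2 fold change divided by the root of F. CPM values are TMM-scaled, and log2 CPM has a prior count of 2. Transcript lengths are from GENCODE for GRCm38 (16239 of 16318 genes matched). Exact permutation used all 77616 labelings within sex, and correlations used 100000 permutations. The procedures were tested on simulated data. For edgeR the simulated counts held no length slope, so that test does not bear on how the slope affects the calls. The members and gene lists were chosen with earlier results of these data known. Other genes named are, per list, the 2 with the smallest p in each direction and, per member, the 3 of mean log2 CPM of at least 1 with the highest r; cell type markers were named after their values were seen. Alternatives were limma 3.58.1 (voom, with and without quality weights), DESeq2 1.42.0, RLE scaling, other filters, no sex term, library name form or length slope as covariate, fits within 1 name form, and leaving out mice 1 at a time.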

Additional observations from a re-analysis of the deposited data

Results flagged for a closer look

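Levels of each gene were examined for mice that stood apart within the PBS females, PBS males and HsTX1[R14A] males (27 groups of 6 mice; chance marks about 1 in 20). In 4 groups the gap between the extreme mouse and its neighbor exceeded Dixon's critical value. App in PBS male 102 was 1195 CPM, the highest of its group, the next being 854 CPM. Trem2 in PBS male 90 was 21.3 CPM, the next being 15.7 CPM. Clu in PBS female 103 was 595 CPM, the lowest of its group, the next being 777 CPM. Ide in HsTX1[R14A] male 93 was 36.6 CPM, the next being 46.5 CPM. The length slopes of mice 90, 103 and 93 (-0.338, -0.384 and -0.142) were the lowest of their groups, while that of mouse 102 (-0.0027) was the highest of the PBS males.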

How the results depend on the processing

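With 0 to 5 of the 9 genes called for treatment across settings, edgeR, limma/voom, DESeq2, RLE scaling, both filters and quality weights gave 4 or 5, and the other settings fewer. Without a sex term 2984 genes and 1 of the 9 (App) were called, with the library name form as covariate 1999 and 0, and 0 and 0 in the 15 mice of one form, in the 6 of the other, and with the length slope as covariate (5797, 532 and 1865 genes at an unadjusted p under 0.05). Leaving out each mouse gave 2289 to 6614 genes and 1 to 5 of the 9. The low end came without PBS male 90 (1 of the 9), and HsTX1[R14A] mice 71, 81, 88 and 98 each left 2 (3332, 3263, 3121 and 3005 genes). In males alone the ranges were 0 to 1879 genes and 0 to 3 of the 9, the upper end without mouse 93. In females alone and for the interaction they were 0 to 0. The sex term gave 7 to 11 genes, and 1 gene under the stricter filter (10 or more counts per mouse). The cause of these changes was not tested.

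Signs changed mainly for genes near 0. For treatment, Clu read -0.0311 with quality weights, -0.0105 with the name form as covariate, -0.0141 and -0.0575 in the 15 and the 6 mice, and -0.188 with the length slope, Psen2 -0.244 in the 6 mice and -0.0842 with the slope, Mapt -0.0213 and Ide -0.0052 with the slope. In the interaction, App (-0.0050) and Mapt (-0.0610) reversed with the slope. In females, Clu was 0.0095 with RLE scaling, and Adam10 (-0.0075), Mapt (-0.0683) and Ide (-0.0606) reversed with the slope. In males, Clu was -0.0404 with the name form, and Psen2 (-0.167) and Clu (-0.215) reversed with the slope. For sex, Apoe was -0.0059 with the name form, and Adam10 (-0.0071), Mapt (-0.0197) and Clu (-0.0602) reversed with the slope. Leaving out 1 mouse moved Clu between -0.0264 and 0.0611 for treatment, between -0.0873 and 0.108 in females and between -0.0532 and 0.114 in males, and Psen2 between -0.0640 and 0.0778 in males. For the interaction the ranges were -0.0540 to 0.0208 for Adam10, -0.167 to 0.0894 for Apoe, -0.0283 to 0.181 for App, -0.123 to 0.0907 for Clu and -0.0798 to 0.0829 for Mapt, and for sex -0.0120 to 0.0210 for Adam10, -0.0506 to 0.0377 for Apoe and -0.0095 to 0.0730 for Clu. A prior count of 0.5 in place of 2 moved no mean level beyond 1 SD. No paired analysis was possible because each mouse number occurs once. At 132 or more counts per library, depth limited Psen2 and Trem2 most.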
